A study of Mus musculus with 12 samples.

Results

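The genes described here are the enzymes that make cholesterol and fatty acids, together with the regulators that control them, in cultured primary keratinocytes of FVB/N mice. They were taken from a list of 35 gene symbols, and 34 of them had an array feature that names a single gene. Those 34 are set against 15868 tested genes of 19938 with such a feature; the remaining symbol, Acat2, was not analysed here. All 34 passed the filter on dim features. They comprise 17 steps of sterol synthesis, 6 regulators of the sterol response and 11 enzymes of fatty acid synthesis, desaturation and elongation.

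RNA was measured on 12 Affymetrix arrays in 4 groups of 3. The wild-type group was an FVB/N keratinocyte control, and the RAS group was wild-type keratinocytes transduced with v-rasHa, an oncogenic form of the Ras signalling protein. The MT-HGF group was a control culture of keratinocytes that carry an HGF transgene (hepatocyte growth factor, which binds the receptor MET); the labels do not name the promoter, which in the MT-HGF line is known to be that of a metallothionein gene. The fourth group was MT-HGF keratinocytes that were mock transduced and treated for 24 hours with AG1478, an inhibitor of the epidermal growth factor receptor (EGFR) kinase, in medium with 8% serum. A transduction step of 3 days is noted alike for the 9 arrays outside the AG1478 group, and whether their controls were mock transduced is not given. The AG1478 arrays also differ from those 9 in the descriptions of medium, RNA extraction and array processing, and no vehicle-treated array was used here. The effect of AG1478 and the effect of those differences therefore cannot be told apart. The age of the animals is not given. The first 3 groups are labelled as biological replicates, but no label says that the arrays came from separate animals or cultures, so the p-values cover array-to-array spread alone, and part of that may be technical.

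Cholesterol is built from acetyl-CoA through mevalonate, farnesyl diphosphate, squalene and lanosterol, and fatty acids are built from the same precursor, then desaturated and elongated. Both pathways are controlled by the SREBP transcription factors: when membrane sterol is low, the escort protein Scap carries an SREBP to the Golgi, where it is cut and released to the nucleus, whereas Insig proteins hold the complex back when sterol is plentiful. In epidermis, cholesterol and fatty acids are needed for the membranes of dividing keratinocytes and for the lipid barrier of the outer layers.

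The promoter windows of 5 genes are printed to show how differently the motifs of this system are spread among genes that were high in the MT-HGF arrays. Hmgcs1 makes HMG-CoA for mevalonate, Mvk phosphorylates mevalonate, Msmo1 removes methyl groups from lanosterol derivatives, Insig1 retains the SREBP complex and Fads2 is a desaturase of polyunsaturated fatty acids. Each window holds 250 bases before and 50 after the RefSeq start site on build GRCm38.p6 and is written 5′ to 3′ on the strand of the gene. The windows are chr13:119690101-119690400 (+) for Hmgcs1, chr5:114444019-114444318 (+) for Mvk, chr8:64733529-64733828 (-) for Msmo1, chr5:28071162-28071461 (+) for Insig1 and chr19:10101454-10101753 (-) for Fads2. Capitals mark a sterol regulatory element, searched as TCACNCCAC, and the NF-Y motif, searched as CCAAT, in either orientation.
Hmgcs1: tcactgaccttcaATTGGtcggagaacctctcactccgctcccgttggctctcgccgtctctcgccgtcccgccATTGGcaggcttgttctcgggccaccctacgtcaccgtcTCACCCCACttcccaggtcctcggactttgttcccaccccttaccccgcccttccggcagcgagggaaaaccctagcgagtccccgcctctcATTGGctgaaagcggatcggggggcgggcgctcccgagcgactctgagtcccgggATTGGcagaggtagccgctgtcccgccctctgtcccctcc
Mvk: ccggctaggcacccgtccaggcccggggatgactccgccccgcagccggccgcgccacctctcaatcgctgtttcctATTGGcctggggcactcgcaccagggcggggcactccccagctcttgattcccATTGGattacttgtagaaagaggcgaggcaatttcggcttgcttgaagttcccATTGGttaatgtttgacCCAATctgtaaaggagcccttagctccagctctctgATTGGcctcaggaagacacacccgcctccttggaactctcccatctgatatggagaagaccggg
Msmo1: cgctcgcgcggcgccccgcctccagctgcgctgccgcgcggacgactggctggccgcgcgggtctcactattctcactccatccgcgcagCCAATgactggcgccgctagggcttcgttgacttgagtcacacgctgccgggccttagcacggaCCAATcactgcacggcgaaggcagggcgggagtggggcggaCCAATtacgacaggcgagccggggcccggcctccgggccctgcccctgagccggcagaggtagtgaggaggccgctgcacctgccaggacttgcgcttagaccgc
Insig1: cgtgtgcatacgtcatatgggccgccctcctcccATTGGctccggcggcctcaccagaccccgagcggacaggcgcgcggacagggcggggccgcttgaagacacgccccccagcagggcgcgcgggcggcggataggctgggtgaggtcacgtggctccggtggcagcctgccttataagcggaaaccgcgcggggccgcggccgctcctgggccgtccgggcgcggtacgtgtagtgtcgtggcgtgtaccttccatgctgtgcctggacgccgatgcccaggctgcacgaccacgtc
Fads2: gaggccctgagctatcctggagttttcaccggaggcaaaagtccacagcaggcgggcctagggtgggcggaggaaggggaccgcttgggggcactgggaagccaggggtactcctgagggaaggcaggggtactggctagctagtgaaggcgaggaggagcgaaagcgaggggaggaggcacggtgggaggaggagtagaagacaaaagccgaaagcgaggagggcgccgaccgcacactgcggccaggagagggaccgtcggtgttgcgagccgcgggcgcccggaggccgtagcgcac

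The Hmgcs1 window held 1 sterol regulatory element, starting 137 bases before the start site, and 4 CCAAT motifs. Mvk held 5 CCAAT motifs, Msmo1 held 3, Insig1 held 1 and Fads2 held none, and none of these 4 windows held the letters searched for the sterol regulatory element. A window was at hand for 27 of the 34 genes, 14 of them sterol steps, 5 regulators and 8 fatty acid enzymes. CCAAT lay in 24 of the 36 windows of these genes and in a window of 23 of the 27 genes, including 14 of 14 sterol steps, 4 of 5 regulators and 5 of 8 fatty acid enzymes, against 37.4% of all 32851 RefSeq windows of the same length. The Sp1 motif GGGCGG lay in a window of 22 of the 27 genes, against 35.7% of all windows. The E-box CACGTG lay in a window of 6, against 7.15%. The sterol regulatory element lay in 1 of the 27, against 1.24%. Genes with several start sites had several windows, so a count by gene is not on the same footing as a share of windows. All motifs were searched on both strands, and no CCAAT or GGGCGG match overlapped the element in the Hmgcs1 window. A match is a description of the letters, and its absence says only that those letters are not in this window.

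Hgf itself read 4.85, 4.96 and 4.93 on the wild-type arrays and 4.90, 5.36 and 5.22 on the RAS arrays, on the log2 scale of the deposited values. It read 10.59, 10.72 and 10.73 on the MT-HGF arrays and 10.77, 10.80 and 10.66 on the AG1478 arrays, which matches the labelled genotype of every array. The array medians lay between 6.77 and 6.84 and arrays of a group correlated at 0.993 to 0.997. Background, taken as the 95th percentile of 161 chemosensory receptor genes on each array, lay between 6.82 and 7.22. Of all arrays, AG1478 replicate 3 had the highest median, the highest background and the lowest correlation with its own group. None of the 34 genes was at or below background on all arrays of any group; Acss2 was above it on 1 of 3 wild-type and 1 of 3 RAS arrays, Tm7sf2 on 1 of 3 and Pmvk on 2 of 3 wild-type arrays. Levels are values of 1 feature per gene and are not compared between genes.

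**Figure D1:**
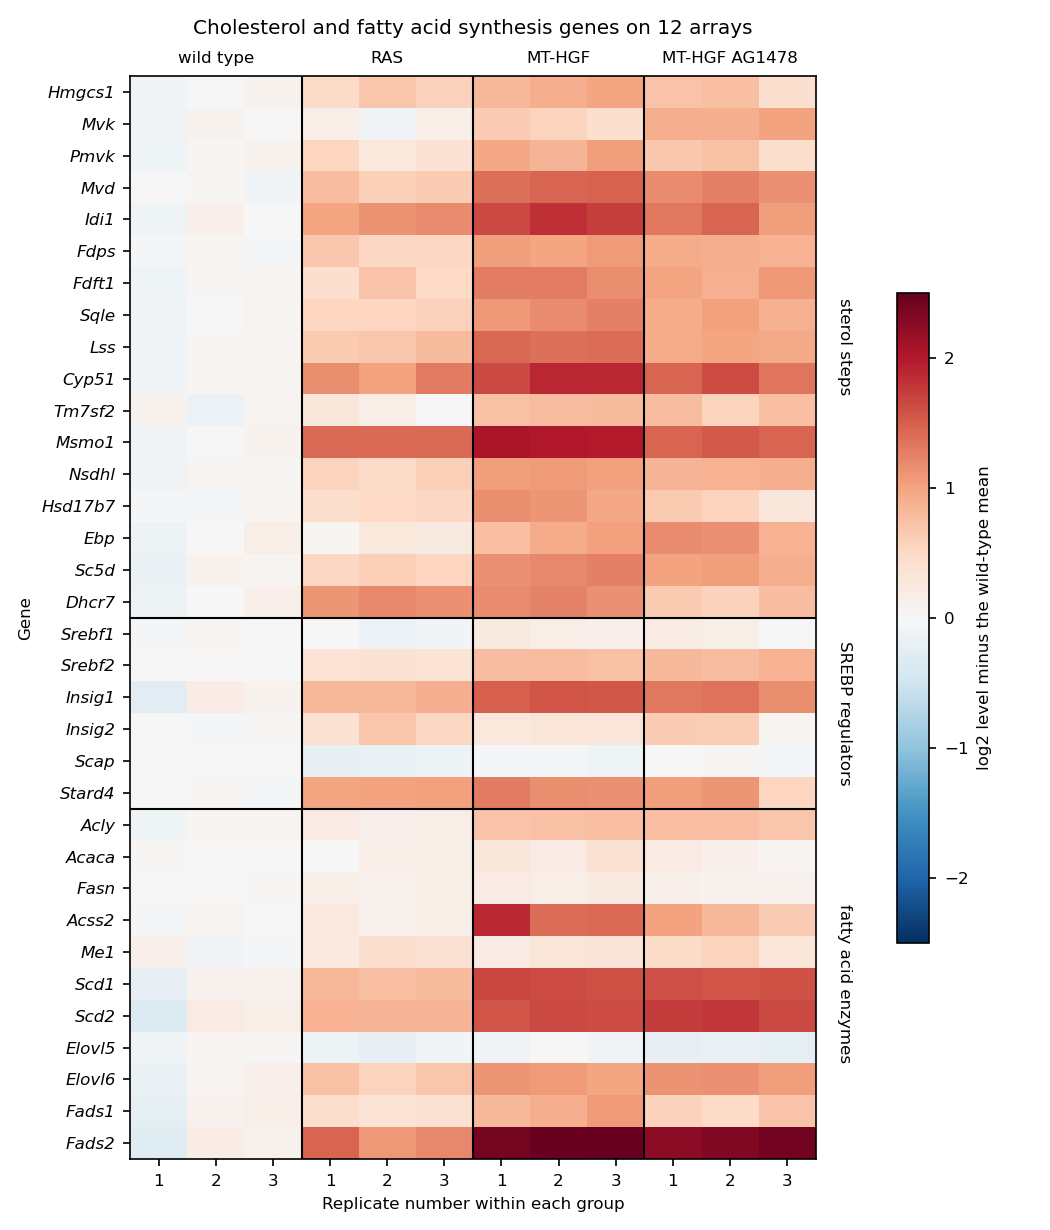
Heat map of the 34 genes (rows) on the 12 arrays (columns, 3 per group), coloured by the log2 level minus the wild-type mean of that gene. Most rows deepen from wild type through RAS to MT-HGF, and the AG1478 columns remain close to MT-HGF for Fads2, Scd1 and Scd2 and paler for Acss2 and Msmo1.

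MT-HGF keratinocytes carried more RNA for most of the system than wild-type keratinocytes. Of the 34 genes, 31 were higher and 0 were lower by limma's moderated test at an adjusted p under 0.05, where 17.1% of all tested genes were higher and 23.9% lower. At an unadjusted p under 0.05 the lower count was still 0. The median difference was 1.05 on the log2 scale, against -0.03 over all genes tested, and 19 of the 34 were at least 2-fold higher. All 17 sterol steps rose, as did 10 of 11 fatty acid enzymes and 4 of 6 regulators. The 3 arrays of each group did not overlap for 33 of the 34 genes, against 50.4% of all genes. These are bulk cultures, in which fewer cells of a type and less RNA per cell cannot be told apart.

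RAS keratinocytes showed the same list higher than wild type for 24 of the 34 genes and lower for 1, against 12.6% and 19.9% of all genes. The median difference was 0.54, against -0.02 over all genes, and 6 of the 34 were at least 2-fold higher. The count was 14 of 17 sterol steps, 6 of 11 fatty acid enzymes and 4 of 6 regulators. The gene called lower was Scap, at -0.18 ± 0.06 (SE), and its call was lost when any 1 of 5 arrays was left out (each wild-type array and RAS replicates 1 and 2). This comparison and the one before share the wild-type arrays, so the direct test between both altered groups is given next. The groups did not overlap for 28 of the 34, against 42.9% of all genes.

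Set directly against RAS, the MT-HGF arrays were higher for 26 of the 34 genes and lower for 0, against 13.4% and 12.6% of all genes; at an unadjusted p under 0.05 limma again had 0 lower. The median difference was 0.57, against -0.02 over all genes. The count was 16 of 17 sterol steps, 7 of 11 fatty acid enzymes and 3 of 6 regulators, and 2 genes, Acss2 and Fads2, were at least 2-fold higher. The groups did not overlap for 31 of the 34, against 39.2% of all genes. The count of lower genes became 1 (Insig2) without AG1478 replicate 3, which enters the shared estimate of spread.

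The AG1478 difference below is AG1478-treated minus untreated MT-HGF. After AG1478, MT-HGF keratinocytes had less RNA for 12 of the 34 genes and more for 1, against 9.91% and 6.57% of all genes. The median difference from untreated MT-HGF was -0.17, against 0.02 over all genes, and no gene reached a 2-fold difference. The 12 were 10 of 17 sterol steps and 2 of 11 fatty acid enzymes, Acss2 and Fads1, with 0 of 6 regulators by limma, or 2 at an unadjusted p under 0.05. The groups did not overlap for 22 of the 34, against 34.2% of all genes. The count of 12 became 7 without MT-HGF replicate 2 and 6 without MT-HGF replicate 3; over all 12 single-array omissions it lay between 6 and 15.

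The AG1478 arrays stood above wild type. Of the 34 genes, 29 were higher and 1 lower, against 16.8% and 26.2% of all genes, with a median difference of 0.88 against 0.00. Against RAS, 21 were higher and 1 lower, against 16.3% and 20.4% of all genes, with a median of 0.33 against 0.02. The gene lower than wild type was Elovl5, at -0.20 ± 0.06 (SE), a call lost without wild-type replicate 2 or 3. The gene lower than RAS was Dhcr7. These comparisons share their arrays with those above, and their values are set side by side below gene by gene.

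**Figure D2:**
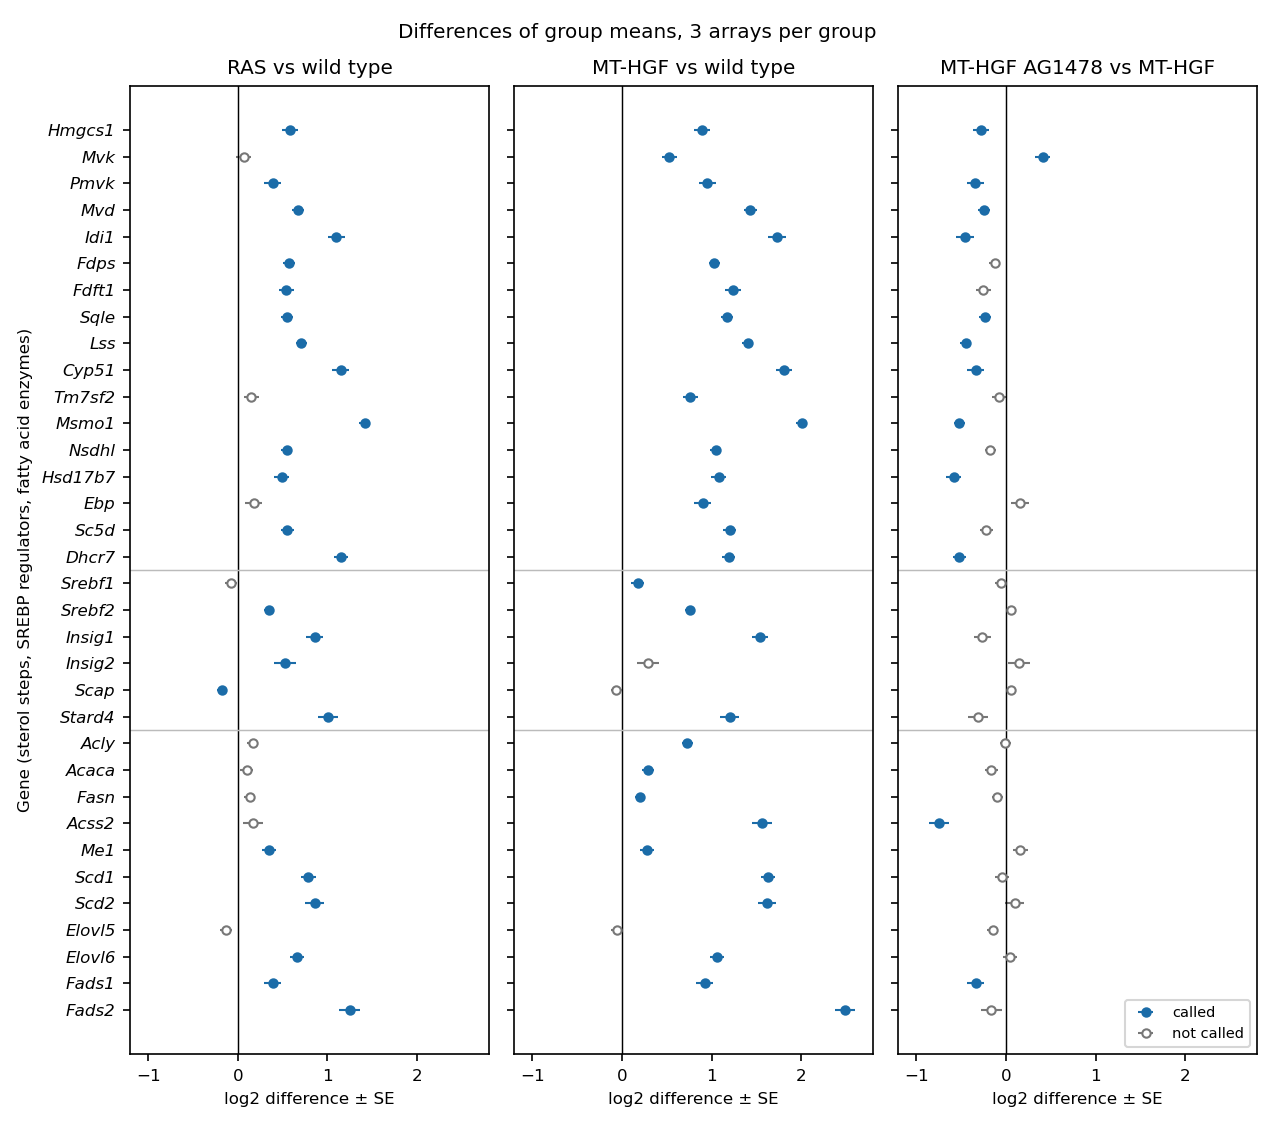
Difference of group means (log2) with its standard error for each of the 34 genes, in panels for RAS against wild type, MT-HGF against wild type and AG1478-treated against untreated MT-HGF, each with 3 arrays per group. Points lie mostly right of 0 in the first 2 panels, up to 2.49 for Fads2, and mostly left of 0 in the last, down to -0.75 for Acss2, with Mvk alone called on the right at 0.41.

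The first section of the sterol pathway runs from HMG-CoA synthase to farnesyl diphosphate and is represented by 6 genes, all higher in MT-HGF than in wild type. Idi1, which isomerises isopentenyl diphosphate, read 8.34, 8.57 and 8.43 in wild type, 9.44, 9.57 and 9.63 in RAS, 10.09, 10.27 and 10.17 in MT-HGF and 9.77, 9.90 and 9.49 after AG1478. The wild-type arrays were lowest and the MT-HGF arrays highest, with no overlap, while the AG1478 arrays overlapped RAS. The difference from wild type was 1.10 ± 0.10 (SE) in RAS (limma adjusted p = 1.18e-07) and 1.73 ± 0.10 in MT-HGF (2.64e-10), and the AG1478 difference was -0.46 ± 0.10 (0.00314). A further Idi1 feature gave 1.08, 1.73 and -0.49 for the same comparisons.

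Mvd, the decarboxylase that yields isopentenyl diphosphate, read 8.14, 8.17 and 8.06 in wild type, 8.90, 8.72 and 8.75 in RAS, 9.50, 9.57 and 9.59 in MT-HGF and 9.29, 9.39 and 9.25 after AG1478. The 4 groups did not overlap anywhere. Its differences were 0.67 ± 0.07 (SE) in RAS (limma adjusted p = 8.15e-07), 1.43 ± 0.07 in MT-HGF (4.2e-11) and -0.24 ± 0.07 with AG1478 (0.0223), the last of which was lost without MT-HGF replicate 2 or 3 or AG1478 replicate 1 or 3.

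Mvk, mevalonate kinase, behaved differently from its neighbours in the pathway and is described because its values stood out. It read 9.01, 9.20 and 9.10 in wild type, 9.25, 9.01 and 9.25 in RAS, 9.74, 9.65 and 9.50 in MT-HGF and 10.00, 10.01 and 10.11 after AG1478. Wild type and RAS overlapped, and the AG1478 arrays were above all others. The difference from wild type was 0.07 ± 0.08 (SE) in RAS (limma adjusted p = 0.634), 0.53 ± 0.08 in MT-HGF (6.68e-05) and 0.94 ± 0.08 after AG1478 (1.14e-07), and the rise with AG1478 over MT-HGF was 0.41 ± 0.08 (0.00237). Its window, printed above, was the one with 5 CCAAT motifs.

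The other genes of this section were called in both altered groups. Hmgcs1, whose window holds the sterol regulatory element, was 0.58 ± 0.09 (SE) higher in RAS and 0.90 ± 0.09 higher in MT-HGF than wild type. Its AG1478 difference of -0.28 ± 0.09 (limma adjusted p = 0.0463) was lost in 10 of 21 alternatives, among them each omission of wild-type replicate 2 or 3, RAS replicate 3, MT-HGF replicate 2 or 3, or AG1478 replicate 3. Pmvk, phosphomevalonate kinase, was higher by 0.39 in RAS and 0.95 in MT-HGF and fell by 0.34 with AG1478, a call lost without MT-HGF replicate 3 or AG1478 replicate 3. Fdps, farnesyl diphosphate synthase, was higher by 0.57 and 1.03, and its AG1478 difference of -0.13 was not called.

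Squalene and lanosterol are made by Fdft1, Sqle and Lss, and all 3 were higher in both altered groups. Lss, lanosterol synthase, was 0.71 ± 0.06 (SE) higher in RAS and 1.40 ± 0.06 higher in MT-HGF than wild type, and fell by 0.45 with AG1478 (limma adjusted p = 9.23e-05). Sqle, squalene epoxidase, was higher by 0.55 and 1.17 and fell by 0.23 with AG1478, a call lost without MT-HGF replicate 2 or 3 or AG1478 replicate 1 or 3. Fdft1, squalene synthase, was higher by 0.54 and 1.24, and its AG1478 difference of -0.25 was not called, though 9 of 21 alternatives called it, including the omission of wild-type replicate 1, RAS replicate 1 or 2, or AG1478 replicate 3. A further Fdft1 feature gave 0.49, 1.14 and -0.22.

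The section from lanosterol to cholesterol holds 8 genes, of which 8 rose in MT-HGF, 6 in RAS, and 4 fell with AG1478. Msmo1, a C4-methylsterol oxidase, had the largest sterol-step difference: it read 9.77, 9.85 and 9.94 in wild type, 11.26, 11.27 and 11.27 in RAS, 11.88, 11.85 and 11.84 in MT-HGF and 11.32, 11.39 and 11.31 after AG1478. The AG1478 arrays lay just above RAS and clear of MT-HGF. It was 1.42 ± 0.06 (SE) higher in RAS (limma adjusted p = 1.41e-11) and 2.01 ± 0.06, or 4.02-fold, higher in MT-HGF (2.3e-13). Its AG1478 difference was -0.52 ± 0.06 (1.46e-05), which left a level 0.07 ± 0.06 from RAS (0.428).

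Cyp51, lanosterol demethylase, read 7.70, 7.82 and 7.86 in wild type, 8.95, 8.79 and 9.09 in RAS, 9.45, 9.68 and 9.68 in MT-HGF and 9.25, 9.42 and 9.13 after AG1478. Wild type was lowest and MT-HGF highest, and the AG1478 arrays lay between RAS and MT-HGF without overlap. Its differences were 1.15 ± 0.09 (SE) in RAS (limma adjusted p = 4.62e-08), 1.81 ± 0.09 in MT-HGF (1.08e-10) and -0.34 ± 0.09 with AG1478 (0.0196). The last call was lost without MT-HGF replicate 2 or 3 or AG1478 replicate 1 or 3.

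The remaining genes of the section fell into different patterns. Hsd17b7, a 3-ketosteroid reductase, was 1.08 higher in MT-HGF than wild type and fell by 0.58 ± 0.08 (SE) with AG1478 (limma adjusted p = 0.00012), the largest fall among the sterol steps. Dhcr7, which carries out the last reduction to cholesterol, read 8.84, 8.98 and 9.10 in wild type, 10.08, 10.18 and 10.12 in RAS, 10.15, 10.22 and 10.12 in MT-HGF and 9.63, 9.55 and 9.75 after AG1478. RAS and MT-HGF overlapped, at a difference of 0.04 ± 0.07 (0.786), and the AG1478 arrays were below both, at -0.48 ± 0.07 from RAS (8.96e-05). Dhcr7 and Hsd17b7 are given in this detail because their values stood out.

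Tm7sf2, a sterol reductase, and Ebp, a sterol isomerase, were called in MT-HGF, at 0.76 and 0.90, and not in RAS, at 0.15 and 0.18. Their direct differences between MT-HGF and RAS were 0.62 and 0.72, both called. Tm7sf2 was above background on 1 of 3 wild-type arrays. In RAS it read 7.19, 7.08 and 6.91, against backgrounds of 7.06, 7.08 and 6.82, so signal limits its difference between RAS and wild type. Nsdhl, a sterol dehydrogenase, and Sc5d, a sterol desaturase, were higher by 0.55 and 0.55 in RAS and by 1.05 and 1.20 in MT-HGF. The AG1478 differences of Tm7sf2, Ebp, Nsdhl and Sc5d were -0.07, 0.16, -0.17 and -0.22, none of them called. Sc5d was called without wild-type replicate 1, and under the stricter filter, the replicate block, array weights and the trended, robust spread model. Nsdhl was called as lower with array weights and with the trended, robust spread model. Ebp was called as higher with array weights.

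**Figure D3:**
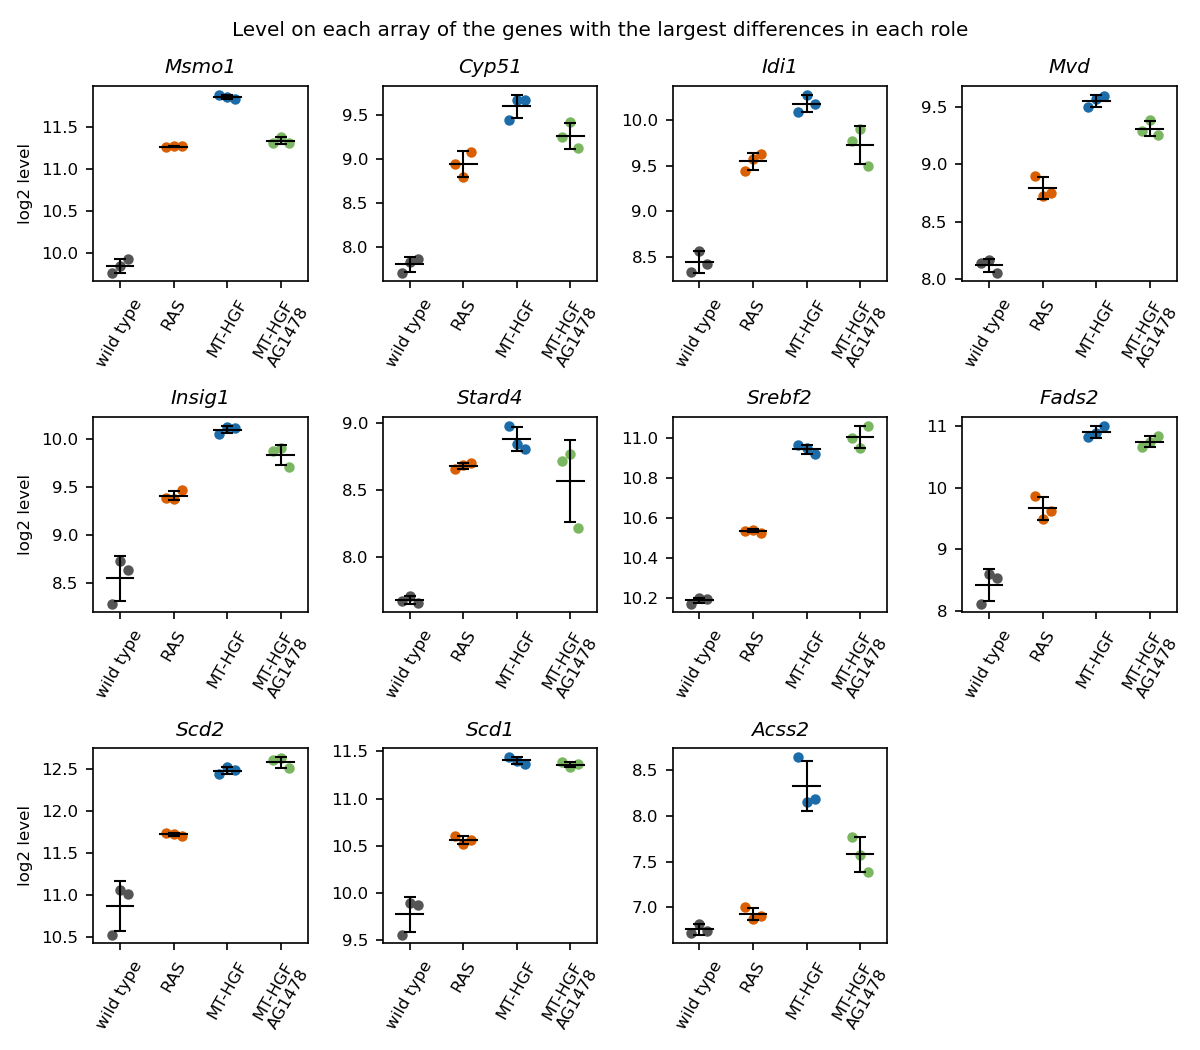
Log2 level on each array (points, 3 per group) of 11 genes with the largest differences within each role, with group means (horizontal lines) and standard deviations (error bars). Wild-type points are lowest in every panel; the AG1478 points lie below MT-HGF for Msmo1, Cyp51, Idi1, Mvd and Acss2 and overlap it for Srebf2, Scd1, Scd2 and Fads2.

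Among the regulators, Insig1, itself a target of SREBP, had the largest difference between MT-HGF and wild type. It read 8.29, 8.73 and 8.64 in wild type, 9.38, 9.38 and 9.47 in RAS, 10.05, 10.12 and 10.12 in MT-HGF and 9.88, 9.90 and 9.71 after AG1478. The 4 groups did not overlap. It was 0.86 ± 0.09 (SE) higher in RAS (limma adjusted p = 1.83e-06) and 1.54 ± 0.09 higher in MT-HGF (7.97e-10), and its AG1478 difference of -0.26 ± 0.09 (0.0662) was called only without wild-type replicate 1 or 2 among the single-array omissions.

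Srebf2, the SREBP chiefly tied to sterol genes, read 10.17, 10.20 and 10.19 in wild type, 10.54, 10.54 and 10.53 in RAS, 10.96, 10.95 and 10.92 in MT-HGF and 10.9997, 10.95 and 11.06 after AG1478. The first 3 groups were separate and tight, and the AG1478 arrays overlapped MT-HGF. Its differences were 0.35 ± 0.06 (SE) in RAS (limma adjusted p = 1.7e-04), 0.76 ± 0.06 in MT-HGF (1.52e-08) and 0.06 ± 0.06 with AG1478 (0.519).

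Stard4, a carrier that moves cholesterol between membranes, read 7.67, 7.71 and 7.65 in wild type, 8.66, 8.69 and 8.70 in RAS, 8.98, 8.85 and 8.81 in MT-HGF and 8.72, 8.77 and 8.21 after AG1478. Wild type lay below all other arrays, and AG1478 replicate 3 lay below the other 2 of its group. It was 1.01 ± 0.11 (SE) higher in RAS (limma adjusted p = 1.51e-06) and 1.20 ± 0.11 higher in MT-HGF (1.16e-07), and the AG1478 difference was -0.31 ± 0.11 (0.0612), called without AG1478 replicate 1 or 2.

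The other regulators moved less. Srebf1, the SREBP chiefly tied to fatty acid genes, was 0.18 ± 0.07 (SE) above wild type in MT-HGF (limma adjusted p = 0.0479), a call lost in 13 of 21 alternatives, and -0.08 from it in RAS. Scap was -0.06 from wild type in MT-HGF and was not called. Insig2, the second retention protein, was 0.53 ± 0.12 higher in RAS than wild type (0.00269) and 0.29 ± 0.12 from it in MT-HGF (0.0672). Insig2 read 9.98 and 9.96 on AG1478 replicates 1 and 2 and 9.38 on replicate 3; without replicate 3 its AG1478 difference was 0.34 and called (0.00908), and its MT-HGF difference from wild type was called as well (0.00329).

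The desaturases Fads2, Scd2 and Scd1 had the largest differences of the 11 fatty acid enzymes from wild type, and 5 of the 6 desaturation and elongation genes rose in both altered groups. Fads2 read 8.12, 8.60 and 8.53 in wild type, 9.87, 9.49 and 9.63 in RAS, 10.82, 10.90 and 11.003 in MT-HGF and 10.66, 10.74 and 10.83 after AG1478. The first 3 groups were separate and the AG1478 arrays overlapped MT-HGF. It was 1.25 ± 0.11 (SE) higher in RAS (limma adjusted p = 2.13e-07) and 2.49 ± 0.11, or 5.61-fold, higher in MT-HGF (2.49e-11), the largest difference of the 34 genes. Its AG1478 difference was -0.16 ± 0.11 (0.372), and its window, printed above, held no CCAAT motif.

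Scd1, a stearoyl-CoA desaturase that makes monounsaturated fatty acids, read 9.56, 9.89 and 9.87 in wild type, 10.61, 10.52 and 10.56 in RAS, 11.44, 11.40 and 11.37 in MT-HGF and 11.38, 11.34 and 11.36 after AG1478. The first 3 groups did not overlap. It was 0.79 ± 0.08 (SE) higher in RAS (limma adjusted p = 6.55e-07) and 1.63 ± 0.08 higher in MT-HGF (4.97e-11), with an AG1478 difference of -0.04 ± 0.08 (0.754). Scd2, its close relative, read 10.53, 11.06 and 11.01 in wild type, 11.74, 11.73 and 11.71 in RAS, 12.44, 12.52 and 12.49 in MT-HGF and 12.61, 12.63 and 12.51 after AG1478. It was 0.86 ± 0.10 higher in RAS (5.9e-06) and 1.62 ± 0.10 higher in MT-HGF (1.57e-09), with an AG1478 difference of 0.10 ± 0.10 (0.561). For both genes wild-type replicate 1 was the lowest array; how far the features of such related genes share signal was not tested.

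Acss2, which makes acetyl-CoA from acetate, had the largest fall of the 34 genes with AG1478. It read 6.72, 6.82 and 6.74 in wild type, 7.004, 6.87 and 6.91 in RAS, 8.64, 8.15 and 8.18 in MT-HGF and 7.77, 7.57 and 7.39 after AG1478. Wild type and RAS lay near background and apart from MT-HGF, and the AG1478 arrays lay between. Its difference from wild type was 0.17 ± 0.11 (SE) in RAS (limma adjusted p = 0.304) and 1.56 ± 0.11 in MT-HGF (8.32e-09), and the direct difference of MT-HGF over RAS was 1.39 ± 0.11 (2.06e-07). Its AG1478 difference was -0.75 ± 0.11 (1.96e-04), and it was still 0.82 ± 0.11 above wild type (1.92e-05).

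Fasn, Acaca, Acly and Me1, grouped with Acss2 under fatty acid precursor and chain synthesis, differed less from wild type than those 3 desaturases. Fasn, the fatty acid synthase, was 0.21 above wild type in MT-HGF and 0.13 in RAS, and only the first was called. Acaca, acetyl-CoA carboxylase, was 0.29 above wild type in MT-HGF and 0.10 in RAS, again with the first called, and a further Acaca feature gave 0.44 and 0.10. Acly, ATP citrate lyase, was 0.73 and 0.17, with the first called and a called difference of 0.57 between MT-HGF and RAS. Me1, malic enzyme, was called in both, at 0.28 in MT-HGF, lost without wild-type replicate 2, and 0.35 in RAS. The AG1478 differences of Fasn, Acaca, Acly and Me1 were -0.09, -0.16, -0.005 and 0.16, none of them called. The further Acaca feature gave -0.27, and the mean of the Acaca features was called, at -0.22 (limma adjusted p = 0.0248). After AG1478, Fasn and Acaca were not called above wild type, at 0.11 and 0.13.

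The last 3 genes were an elongase and a desaturase that rose, and an elongase that did not. Elovl6 was 1.06 above wild type in MT-HGF and 0.66 in RAS, and Fads1, the partner desaturase of Fads2, was 0.93 and 0.39, all called. Fads1 fell by 0.34 with AG1478, a call lost without MT-HGF replicate 2 or 3 or AG1478 replicate 1 or 2, whereas Elovl6 differed by 0.05 and was not called. Elovl5, an elongase of polyunsaturated fatty acids, was -0.06 in MT-HGF and -0.13 in RAS, neither called.

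By group means, 21 of the 34 genes ran from wild type through RAS and AG1478 to MT-HGF, 14 of them sterol steps, 1 a regulator and 6 fatty acid enzymes. Each of the 3 steps between neighbours was called for 4 of these 21, namely Mvd, Sqle, Lss and Cyp51. For the others at least 1 step between neighbours was not called. The last step of Mvd, Sqle and Cyp51 was lost without MT-HGF replicate 2 or 3 or AG1478 replicate 1 or 3. The Cyp51 step from RAS to AG1478 was lost without RAS replicate 2 or AG1478 replicate 2. In 5 genes, Mvk, Ebp, Srebf2, Scd2 and Elovl6, the means ran from wild type through RAS and MT-HGF to AG1478, with the last step called for Mvk alone. In Dhcr7, Stard4 and Fasn they ran from wild type through AG1478 and RAS to MT-HGF, and the other 5 genes each had an order of their own. The AG1478 mean was above MT-HGF in 8 of the 34 genes.

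The mean level over the 17 sterol steps lay between 8.76 and 8.89 on the wild-type arrays, 9.47 and 9.48 in RAS, 10.01 and 10.05 in MT-HGF and 9.73 and 9.83 after AG1478. For the 11 fatty acid enzymes it lay between 9.25 and 9.44, 9.76 and 9.84, 10.33 and 10.36, and 10.19 and 10.25 in the same order. For the 6 regulators it lay between 9.13 and 9.21, 9.57 and 9.61, 9.81 and 9.85, and 9.61 and 9.85. The AG1478 arrays overlapped the MT-HGF arrays for the regulators and lay below them for the other 2 roles.

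Other genes of lipid handling were counted in the same way, to be read against the shares of all genes called higher and lower: 17.1% and 23.9% in MT-HGF and 12.6% and 19.9% in RAS against wild type, and 6.57% and 9.91% with AG1478. Of 16 tested genes of 23 listed for the rest of sterol synthesis, uptake and SREBP processing, 6 rose and 2 fell in MT-HGF, 3 rose and 2 fell in RAS, and 0 rose and 3 fell with AG1478, so the RAS counts were near those shares. Aacs, which activates acetoacetate for lipid synthesis, was 0.69 ± 0.09 (SE) higher in MT-HGF than wild type (limma adjusted p = 1.47e-05) and fell by 0.33 with AG1478 (0.0225). Lipa, the lysosomal acid lipase that frees cholesterol from taken-up esters, was lower in MT-HGF, at -0.76 ± 0.08 (1.52e-06). Hsd17b12, a reductase of fatty acid elongation, fell by 0.46 with AG1478 (7.05e-04).

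Genes of the liver X receptor (LXR), the sensor of sterol excess, and of cholesterol efflux were called in both directions. Of 10 tested of 11 listed, 3 rose and 4 fell in MT-HGF, against 17.1% and 23.9% of all genes. In RAS, 1 rose and 5 fell, against 12.6% and 19.9%. With AG1478, 4 rose and 1 fell, against 6.57% and 9.91%. These counts include Ch25h, a cholesterol hydroxylase, which was not above background on any RAS, MT-HGF or AG1478 array. Abcg1, a sterol exporter, was 1.34 ± 0.07 (SE) higher in MT-HGF than wild type (limma adjusted p = 9.25e-11) and 2.00 ± 0.07 higher in RAS, and MT-HGF minus RAS was -0.66 ± 0.07. Lpcat3, which places polyunsaturated chains in phospholipids, was 0.88 ± 0.07 higher in MT-HGF (1.04e-08). Mylip, the ligase that degrades the LDL receptor, read 8.91, 9.42 and 9.32 in wild type, 8.68, 8.65 and 8.54 in MT-HGF and 9.71, 9.86 and 9.55 after AG1478, a rise of 1.08 ± 0.11 with AG1478 (2.71e-06). Nceh1, a cholesterol ester hydrolase, fell by 0.43 with AG1478 (4.57e-04).

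For other genes of fatty acid synthesis, activation and storage, 25 were tested of 29 listed: 16 rose and 2 fell in MT-HGF, 12 rose and 2 fell in RAS, and 1 rose and 9 fell with AG1478. Lpin2, a phosphatidate phosphatase of glycerolipid synthesis, read 7.56, 7.72 and 7.79 in wild type, 10.36, 10.12 and 10.45 in RAS, 9.55, 9.61 and 9.74 in MT-HGF and 8.83, 8.76 and 8.86 after AG1478. The groups were separate with RAS on top, at 2.62 ± 0.09 (SE) over wild type; MT-HGF was 1.94 ± 0.09 higher (limma adjusted p = 2.07e-11), and its AG1478 difference was -0.82 ± 0.09 (5.48e-06). Dgat2, which forms triglyceride, was 1.43 ± 0.07 higher in MT-HGF (1.06e-10). Acsl4, which activates polyunsaturated fatty acids, fell by 0.90 with AG1478 (7.61e-08), to -0.05 ± 0.07 from wild type (0.584).

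Fatty acid oxidation, the opposing pathway, was lower in RAS for 10 of 17 tested genes of 19 listed and higher for 3. In MT-HGF 8 were higher and 2 lower than wild type. The median difference from wild type was -0.28 in RAS, against -0.02 over all genes. In MT-HGF it was -0.03, the same as over all genes, so the list as a whole was not raised there. Directly between MT-HGF and RAS, 9 were higher and 0 lower, against 13.4% and 12.6% of all genes. With AG1478, 4 rose and 2 fell. Ehhadh and Decr1, oxidation enzymes counted as lower in RAS, were not above background on any RAS array. Cpt1a, the gate of mitochondrial fatty acid entry, read 9.91, 10.11 and 10.07 in wild type, 9.22, 9.33 and 9.47 in RAS, 10.45, 10.49 and 10.44 in MT-HGF and 10.84, 10.95 and 11.02 after AG1478. Its 4 groups did not overlap, and it rose by 0.48 ± 0.08 (SE) with AG1478 (limma adjusted p = 3.14e-04). Acadm, a medium-chain dehydrogenase, rose by 0.46 with AG1478 (3.34e-04). Ppard, a lipid-sensing receptor, and Hadhb, a subunit of the trifunctional protein, were 0.78 and 0.49 higher in MT-HGF than wild type (1.27e-06 and 0.00142).

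**Figure D4:**
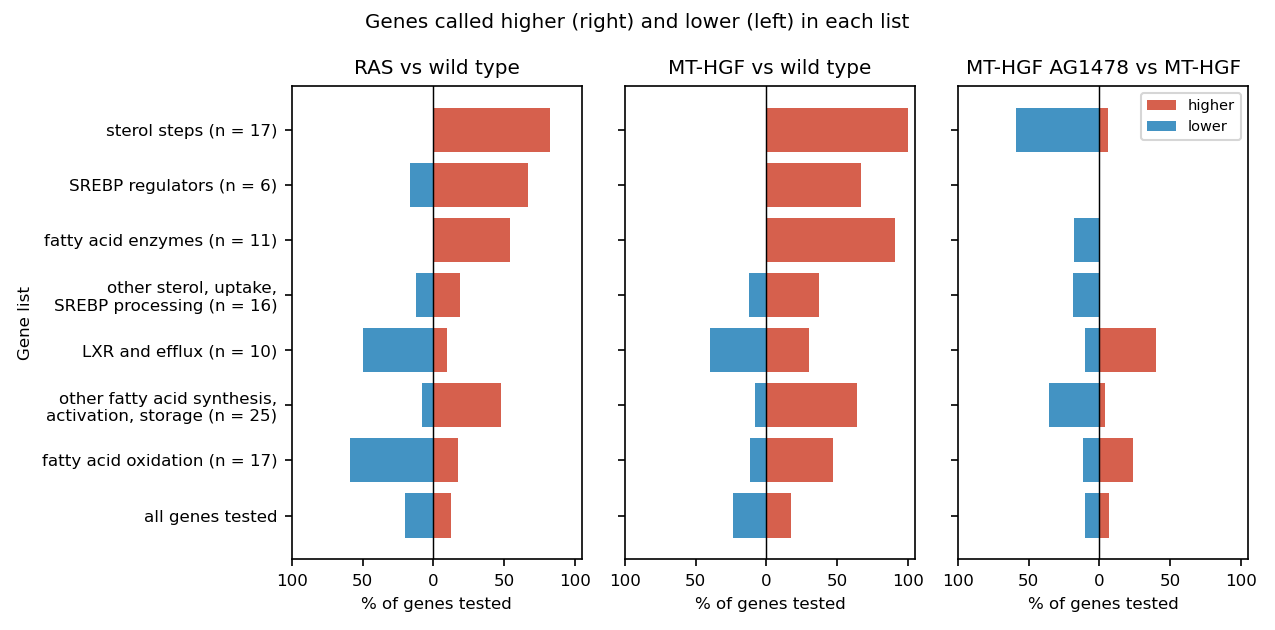
Share of the tested genes of each list called higher (bars to the right) or lower (to the left), in percent, for RAS and MT-HGF against wild type and AG1478-treated against untreated MT-HGF, with all tested genes as the bottom bar. The sterol steps reach 17 of 17 higher in MT-HGF, while oxidation genes extend to the left in RAS.

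Markers of other cells moved with some of these groups. The 9 keratinocyte markers had a mean level of 11.43 to 11.45 in wild type, 11.46 to 11.49 in RAS, 11.45 to 11.49 in MT-HGF and 11.52 to 11.58 after AG1478. Of these 9, 1 was called higher and 2 lower in RAS, and 1 and 1 in MT-HGF, against wild type. With AG1478, 2 rose and 2 fell, against 6.57% and 9.91% of all genes. Single-marker differences ran from -0.20 to 0.83 in RAS, -0.19 to 0.69 in MT-HGF and -0.54 to 0.80 with AG1478. Of 6 tested sebocyte markers of 12 listed, 3 were called higher in RAS and in MT-HGF, and their mean level was 6.49 to 6.59 in wild type, 7.09 to 7.19 in RAS, 7.14 to 7.17 in MT-HGF and 7.17 to 7.28 after AG1478. The 3 were Krt79, 1.24 ± 0.07 (SE) higher in MT-HGF (limma adjusted p = 2.08e-10), and Scd3 and Cidea. Scd3 and Cidea were not above background on any wild-type array. In MT-HGF they were higher by at least 0.70 and 0.80 on the log2 scale. In RAS, Scd3 read 6.89, 6.74 and 6.92, against backgrounds of 7.06, 7.08 and 6.82, so its call there lies near background. Awat1 and Pparg were not above background in any group.

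Of 6 tested adipocyte markers of 10 listed, 1 was called higher in RAS and in MT-HGF: Fabp4, by at least 1.45 and 0.86 on the log2 scale over background, and not above background after AG1478. Their mean level was 6.48 to 6.65, 6.88 to 7.07, 6.83 to 6.91 and 6.56 to 6.70 from wild type through RAS and MT-HGF to AG1478. Of 9 fibroblast markers, 0 rose and 5 fell in RAS and 3 rose and 6 fell in MT-HGF, with mean levels of 8.42 to 8.49, 7.76 to 7.80, 8.15 to 8.24 and 8.19 to 8.21; Lum was not above background in wild type or MT-HGF, nor Postn in RAS or MT-HGF. Of 7 melanocyte markers, 0 were called in RAS and 5 fell in MT-HGF, with mean levels of 10.19 to 10.38, 10.30 to 10.44, 9.91 to 10.07 and 9.94 to 10.05. Of 5 tested leukocyte markers of 7 listed, 0 to 2 were above background on a wild-type or RAS array and 0 on any MT-HGF or AG1478 array; 0 were called higher and 2 lower in MT-HGF. The 3 tested endothelial markers of 5 listed were not above background on any of the 12 arrays, and 1 was called higher and 1 lower there. These marker counts stand beside the same 17.1% and 23.9% of all genes in MT-HGF and 12.6% and 19.9% in RAS. The part of these cells in the differences of the 34 genes was not tested.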

How the data were processed

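The values are the deposited log2 levels of 35511 array features on 12 arrays of primary mouse keratinocytes. The submitters' processing notes name RMA, which corrects background, normalizes arrays and summarizes probes; its version and whether all arrays were run together are not given in the sources used here. Of the features, 21789 carry 1 gene symbol in the platform annotation, 1621 several and 12101 are not listed; 21698 of the first matched a current gene record, and 0 symbols changed. Features above an array's 30th percentile on at least 3 arrays were kept (25860), and each gene took its feature with the highest mean, where 815 genes had several, which left 15868 genes. limma 3.58.1 (R 4.3.3) fitted 4 group means with 8 residual degrees of freedom and moderated variances, and tested 6 comparisons, two-sided. P-values were adjusted by Benjamini-Hochberg over all 15868 genes and called under 0.05. The procedure was tested on simulated data.

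The genes and lists were chosen with earlier results of these data known. Per-array values and full statistics are given for the 4 sterol steps, 3 regulators and 4 fatty acid enzymes with the largest difference in any comparison, and for the other lipid lists the 2 genes with the largest called difference in MT-HGF and the 2 with AG1478 are named; others shown in detail were picked after their values were seen. Lists of keratinocyte, sebocyte, adipocyte, fibroblast, melanocyte, leukocyte and endothelial markers were counted alike. A gene not above background on all arrays of the lower group is given as a bound against background. Alternatives were other filters, scalings, feature choices, spread models, a replicate block, fits to the groups compared alone and leaving out each array. Promoter windows are from RefSeq. The number of arrays limits the precision.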

Additional observations from a re-analysis of the deposited data

How the results depend on the processing

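Each of the 204 differences of the 34 genes was recomputed under 21 alternatives. Of these 4284 values, 4155 kept their direction and their side of the threshold, 70 dropped below it, 59 crossed above it, and 0 changed the direction of a call. With array weights, whose fit gave a convergence warning, 2 genes were lower in RAS than wild type, 1 was lower in MT-HGF than RAS and 4 were higher with AG1478. Fits to the groups compared alone gave 0 lower in RAS than wild type and 1 lower in MT-HGF than RAS, and arrays quantile normalized again gave 2 higher with AG1478. Over all genes, array weights gave 3100 higher and 4996 lower in RAS than wild type, against 2004 and 3154, and 1795 higher with AG1478 over MT-HGF and 4367 over wild type, against 1043 and 2663. Leaving out each array in turn gave 24 to 24 higher and 0 to 1 lower in RAS than wild type, 29 to 32 and 0 to 0 in MT-HGF than wild type, 25 to 28 and 0 to 1 in MT-HGF than RAS, 1 to 2 and 6 to 15 with AG1478 against MT-HGF, 28 to 29 and 0 to 1 against wild type, and 18 to 23 and 1 to 1 against RAS. The cause of these shifts was not tested. Replicate numbers did not pair the arrays of all groups alike. Same-numbered arrays of different groups deviated with correlations of -0.44 to 0.53, and 7 of 18 pairs were above 0.1. Of 36 best matches, 16 had the same number. Same-numbered pairs lay at 0.05 to 0.53 between wild type and MT-HGF and at 0.09 to 0.50 between RAS and MT-HGF. Between wild type and RAS they lay at -0.24 to 0.40, and pairs with AG1478 arrays at -0.44 to 0.22. Whether the first 3 groups share replicates or batches was not tested. With the replicate block, 14 genes in place of 12 were lower with AG1478 and 30 in place of 31 higher in MT-HGF than wild type. Signal over background limits Acss2, Tm7sf2 and Pmvk in wild type. It also limits Acss2 in RAS, where it was above background on 1 of 3 arrays, and Tm7sf2, which lay close to background there.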
